A study of Mus musculus with 12 samples.

Results

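RNA from Dis3l knockout and wild-type mouse blastocysts was compared gene by gene. The groups were 3 knockout and 3 wild-type blastocysts, which are 6 of the 12 samples of the series, and each library was made from a single embryo. Females were superovulated with PMSG and hCG, mated, and dissected 96 hours after hCG. Per the labels, cDNA was cut and tagged with the transposase Tn5 and amplified for 15 cycles. Such libraries do not mark the strand of the RNA. The strain, the design of the knockout allele, the litters and the sex of the embryos are not given in the sources used here. The description covers every gene with a mean above 0 in the authors' deposited table, 17367 of the 45706 genes listed. Of these, 15209 had an adjusted p-value and are called tested.

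DIS3L is the nuclease that associates with the RNA exosome in the cytoplasm. The complex degrades RNA from its 3′ end and works with the SKI helicase complex on messenger RNA. The blastocyst is the embryo just before implantation. Its outer trophectoderm gives rise to the placenta, and its inner cell mass holds the pluripotent epiblast and the primitive endoderm, a precursor of the yolk sac. The comparison asked which transcripts differ in embryos when the cytoplasmic exosome nuclease is lost.

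The deposited table does not say which genotype is the reference, so signs are given as deposited. The whole reads behind each mean were recovered for 16947 of the 17367 genes. They fall into 6 libraries, 3 on each side of the comparison. The positive side denotes the 3 libraries in which genes with a positive log2 fold change were higher, and the negative side the other 3. One side is the knockout and the other the wild type, and which is which was not assigned. Libraries are numbered 1 to 3 within a side in the order in which they were found, and the numbers are not the replicate numbers of the labels. Normalised reads are reads divided by the size factor, the relative depth of a library. Where 3 values are set against 3 others, positive-side libraries 1 to 3 come first and negative-side libraries 1 to 3 second. The recovered genes held between 1205663 and 2830771 reads per library and 38.0% of the summed means. The 416 genes with a mean of 1000 and over, with 62.0% of the summed means, were not solved for reads.

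One library stood apart from its side. Across 7002 genes with a mean of at least 50, negative-side library 2 correlated less with the other negative-side libraries (Spearman's rho 0.68 and 0.67) than with the positive-side libraries (0.81, 0.84 and 0.78). Negative-side libraries 1 and 3 correlated at 0.80 with each other. They lay between 0.61 and 0.75 against the positive side. A first principal component with 43.9% of the variance set these 2 libraries against positive-side libraries 2 and 3 and negative-side library 2. These correlations are across genes within libraries of shared origin, are descriptive, and were not used to regroup any library. For the call count and for some of the lists below, values with and without negative-side library 2 are both given. Other lists moved too. By limma at an unadjusted p under 0.05, respiratory chain genes went from 0 higher and 2 lower to 1 and 9 without that library. Cholesterol genes went from 2 and 0 to 6 and 2. Over all genes the shares went from 3.53% higher and 3.49% lower to 8.32% and 6.64%.

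**Figure D1:**
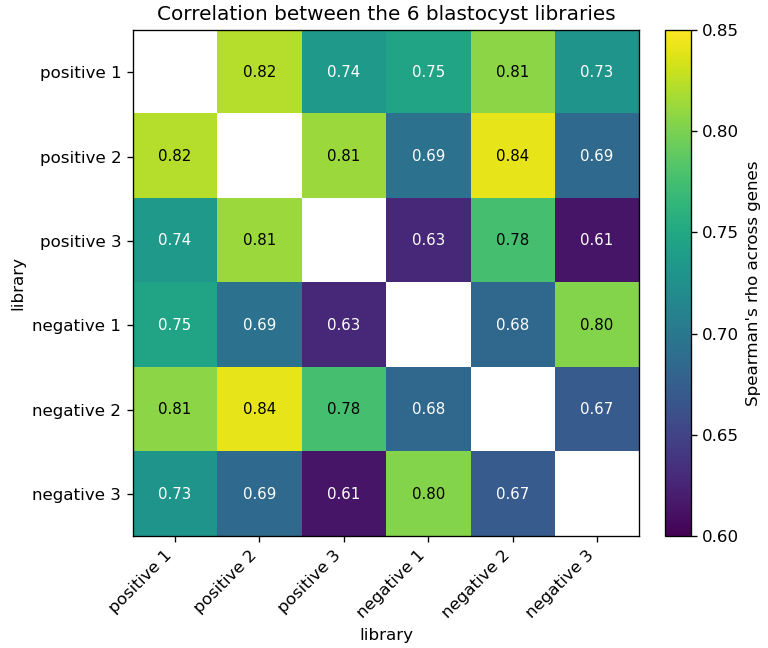
Spearman's rho across 7002 genes between each pair of the 6 blastocyst libraries, 3 on the positive and 3 on the negative side of the deposited comparison. Negative-side library 2 lies nearer to the positive-side libraries (0.78 to 0.84) than to negative-side libraries 1 and 3 (0.68 and 0.67).

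The targeted gene was scarce. Dis3l (chromosome 9, 64306756 to 64341288, GRCm38) had 18.6, 8.12 and 0 normalised reads in the positive-side libraries and 6.18, 4.46 and 11.5 in the negative-side libraries. The sides overlapped, and every negative-side library held reads of the gene. The part of the gene that was deleted is not given in the sources used here, so these reads do not check the genotype labels.

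Reads were found for most marker genes of all 3 blastocyst lineages. Of 35 trophectoderm markers and 30 inner cell mass markers, none had a mean of 0, and of 30 primitive endoderm markers 1 did (Afp). A mean above 0 can rest on very few reads. The primitive endoderm marker Bmp2, chosen after its values were seen, had means of 0 and 0.74. Some markers of other cell types also had a mean above 0. Of 18 feeder fibroblast markers, 10 had a mean of 0, among them Col1a1, Col1a2, Dcn and Lum. Summed normalised reads of the list ranged from 370 to 1369 on the positive side and from 832 to 1453 on the negative side. A single member, Fn1, had means of 691 and 1133, so these sums rest mainly on 1 gene. Of 16 cumulus and granulosa markers, 13 had a mean of 0, and the summed reads were at most 29.98 on the positive side and 63.3 on the negative side. Among 16 blood and uterine markers 6 had a mean of 0, Ptprc and Csf1r included. Their sums ranged from 38.9 to 175 on the positive side and from 178 to 293 on the negative side. Pecam1 alone had means of 50.6 and 190. Whether reads of these lists came from other cells or from the embryo was not tested, nor was the part of such cells in the results.

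Few genes differed by the authors' test. In the authors' deposited table, 15 of 15209 tested genes (0.0986%) had an adjusted p-value under 0.05. Of these, 2 (0.0132% of tested genes) were higher and 13 (0.0855%) lower on the positive side. All 15 were protein coding. The normalised reads of the sides did not overlap in any of the 15. Of all tested genes with reads, 9.98% did not overlap, 4.7% with the positive side higher and 5.28% with the negative side higher. A limma test on log2 of normalised reads plus 1, over 10551 genes, called 0 genes (0%), with 740 at an unadjusted p under 0.05.

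The 2 genes higher on the positive side were Chac1 and Pkhd1. Chac1 encodes a glutathione-degrading enzyme and is a known target of the transcription factor ATF4. Normalised reads of Chac1 (chromosome 2, 119351229 to 119354381) were 116, 250 and 89.1 in the positive-side libraries and 2.47, 15.6 and 11.5 in the negative-side libraries. The lowest positive-side library was above every negative-side library, with means of 151 ± 86.1 and 9.86 ± 6.72 (SD, n = 3 each). Its log2 fold change was 3.99 (SE 0.80). Pkhd1, which encodes the ciliary membrane protein fibrocystin, had 14.3, 34.5 and 64.0 on the positive side and no read on the negative side.

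Of the genes lower on the positive side, several shape the cell membrane, the cytoskeleton or adhesion, a grouping made after the genes were known. The list of keratins, junctions and actin cortex was not lower as a whole. Of its 45 tested genes 25 were higher and 20 lower, with a median log2 fold change of 0.05. At an unadjusted p under 0.05, 2 were higher and 6 lower, against 2.68% and 3.53% of all tested genes. Baiap2l1, whose product bends membrane and bundles actin, is on chromosome 5 (144264526 to 144358112). Its normalised reads were 41.4, 28.4 and 11.4 in the positive-side libraries and 161, 618 and 901 in the negative-side libraries. The lowest negative-side library held several times the reads of the highest positive-side library, and negative-side library 2 was high here, unlike in most of the 13 genes. The log2 fold change was −4.35 (SE 0.60), with the smallest adjusted p of the authors' deposited table, 6.94e-09. Inpp5d (chromosome 1, 87620312 to 87720507) encodes the phosphoinositide phosphatase SHIP1 and had 9.99, 32.5 and 6.86 against 522, 58.0 and 227. Tes, which encodes the focal adhesion protein testin (chromosome 6, 17065149 to 17105828), had 82.1, 40.6 and 50.3 against 317, 116 and 616. For Tubb4b, a beta-tubulin gene (chromosome 2, 25222160 to 25224702), the values were 520, 347 and 270 against 1265, 718 and 1148. Its log2 fold change of −1.46 (SE 0.36) was the smallest of the 15, and the authors' deposited table gave it an adjusted p of 0.048. The actin-binding coronin Coro2a (chromosome 4, 46536937 to 46602202) had no positive-side reads and 73.0, 58.0 and 17.3 in the negative-side libraries.

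The other genes lower on the positive side include carriers, enzymes and a cell cycle factor. Fabp5, a fatty acid-binding protein gene (chromosome 3, 10012548 to 10016607), had 14.3, 0 and 9.14 normalised reads against 326, 20.1 and 328. Slc37a2, which encodes a sugar phosphate transporter of the endoplasmic reticulum (chromosome 9, 37229149 to 37255738), had 5.71, 18.3 and 13.7 against 189, 69.1 and 190. In both, negative-side library 2 was the lowest of its side and lay closest to the positive side. The transcription factor gene E2f2 (chromosome 4, 136172394 to 136196057) had 1.43, 0 and 0 against 52.0, 55.7 and 46.0, with close values on the higher side. Its log2 ratio of side means was −6.75, and without positive-side library 1, where no positive-side read is left and the floor of 3 reads per library stands in, it was −3.99. Gstp2, a glutathione S-transferase gene (chromosome 19, 4040285 to 4042236), had 91.4, 47.7 and 83.4 against 451, 162 and 370. Its neighbour in sequence, Gstp1, showed 87.1, 61.9 and 85.7 against 359, 155 and 312 and missed the authors' threshold (adjusted p = 0.139, authors' deposited table), and reads of the pair may have been split between them.

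Another 4 genes had no read in any positive-side library. They were Zcchc24, Apoc2 (a cofactor of lipoprotein lipase), Ace (angiotensin-converting enzyme) and Wdr35 (a component of ciliary transport). Zcchc24 (chromosome 14, 25711642 to 25769039) had 70.5, 31.2 and 37.4 normalised reads on the negative side. For Apoc2 (chromosome 7, 19671579 to 19681423) the values were 50.7, 11.2 and 89.2, and for Ace (chromosome 11, 105967945 to 105989964) they were 56.9, 29.0 and 46.0. Against a floor of 3 reads per library, with reads taken as independent, Coro2a, Zcchc24, Apoc2 and Ace were at least 15.3-fold to 17.5-fold lower on the positive side. Without their highest library these bounds were 10.8-fold to 13.1-fold. Wdr35 (chromosome 12, 8973892 to 9028847) rested on 1 library, with 118, 8.92 and 2.88, and its bound of at least 15.0-fold became 2.05-fold without negative-side library 1. Pkhd1 was at least 11.9-fold higher on the positive side, and at least 7.69-fold without its highest library. Of counts above 0, 95.6% were even, so reads may not be independent and all these bounds may be too high.

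Negative-side library 2 was the lowest of its side in 9 of the 13 genes lower on the positive side, library 3 in 3 and library 1 in 1. The plot of the called genes shows that library between the positive side and the other negative-side libraries for Inpp5d, Fabp5, Slc37a2, Tes and Gstp2.

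**Figure D2:**
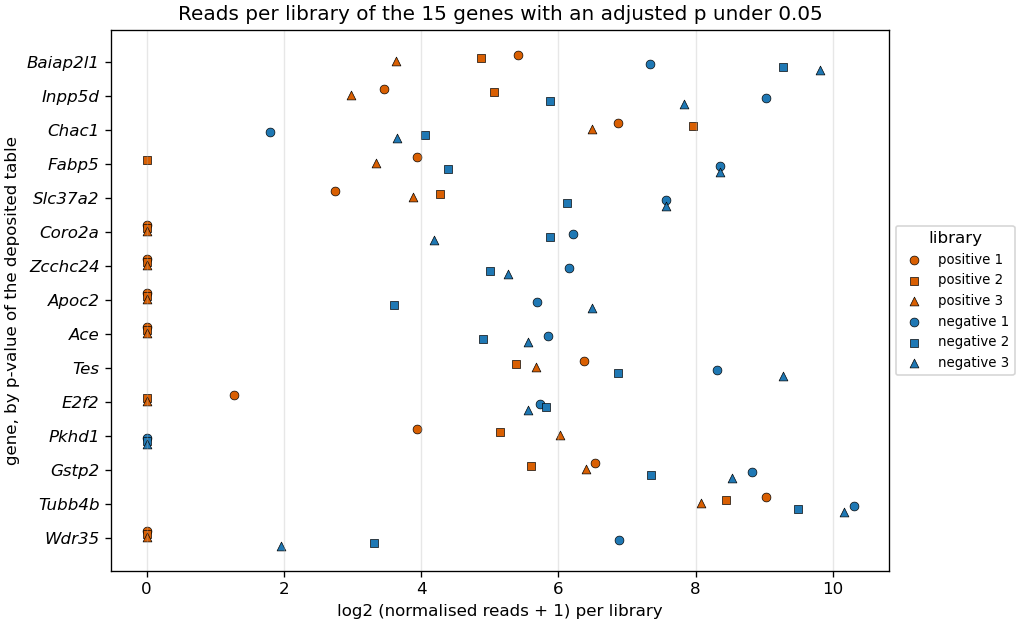
Normalised reads (log2 of reads plus 1, x axis) of the 15 genes with an adjusted p under 0.05 in the authors' deposited table (y axis), 1 point per library. Orange points are the 3 positive-side and blue points the 3 negative-side libraries, and in no row do the colours overlap.

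Another 4 genes had an adjusted p-value from 0.05 to under 0.10, and all 4 were lower on the positive side. Gja1 encodes connexin 43, the gap junction channel, and had 228, 91.3 and 91.4 normalised reads against 1142, 134 and 786 (adjusted p-value 0.0889 in the authors' deposited table). Slc39a4, a zinc importer gene, had 118, 44.7 and 153 against 809, 174 and 460. In both, the reads of negative-side library 2 were nearer to the positive side than to its own side. Tarsl2, which encodes a threonyl-tRNA synthetase, and Grin1, which encodes a glutamate receptor subunit, had no read on the positive side.

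Most genes of the response to amino acid shortage were lower in negative-side libraries 1 and 3 than in the positive-side libraries, and most were not lower in negative-side library 2. The integrated stress response list holds targets of ATF4, the transcription factor whose translation rises when the initiation factor eIF2 is phosphorylated. In the authors' deposited table, 18 of its 22 members were tested, 15 were higher and 3 lower on the positive side, and the median log2 fold change was 0.76, against −0.04 over all tested genes. Chac1 passed the adjusted test, and 2 members were higher at an unadjusted p under 0.05, against 2.68% of all tested genes in that direction. The second of them was Herpud1, which acts in the disposal of misfolded proteins, with 207, 282 and 386 normalised reads against 70.5, 244 and 77.7. Ndrg1, the member with the highest mean (4667), had a log2 fold change of 0.99 (SE 0.73).

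Single members show the pattern by library. Trib3, Atf5 and Ddit4 were chosen after their values were seen. Trib3, an ATF4-induced pseudokinase gene, had 124, 181 and 208 normalised reads against 4.95, 261 and 0. For Atf5, a transcription factor gene, the values were 196, 555 and 542 against 11.1, 540 and 14.4. Negative-side libraries 1 and 3 were far below every positive-side library in both genes, whereas negative-side library 2 was as high as the positive side. Ddit4, an inhibitor of mTOR signalling, had 206, 522 and 564 against 12.4, 301 and 5.75. Over the 19 list members that had reads and reached a mean of 10, negative-side libraries 1 and 3 were both below every positive-side library in 14, which is 73.7%, against 15.9% of all 10551 such genes. Among all 1682 genes with that arrangement, negative-side library 2 was not below the positive side in 1081. Among the 14 list members it was not below in 13. The exception was Chac1.

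Amino acid transporters followed the same arrangement. Of 22 tested transporter genes, 18 were higher and 4 lower on the positive side, with a median log2 fold change of 0.68. Slc38a2, which encodes a neutral amino acid transporter and was chosen after its values were seen, had 1126, 1356 and 1278 normalised reads against 59.4, 1166 and 144. Slc7a3, a cationic amino acid transporter gene chosen in the same way, had 188, 227 and 587 against 0, 513 and 5.75. Slc3a2, the shared heavy chain of several transporters, had the smallest unadjusted p-value in the list (0.0199 in the authors' deposited table) with a log2 fold change of 0.95 (SE 0.41). The glycine transporter gene Slc6a9 had 9.99, 54.8 and 20.6 against 0, 8.92 and 0. Among 19 members with reads and a mean of at least 10, 13 had negative-side libraries 1 and 3 below every positive-side library. In 11 of these library 2 was not below. Over all such genes the arrangement was found in 15.9%, and in 1081 of those 1682 library 2 was not below.

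Genes that make amino acids or load them onto tRNA were mixed. Of 21 tested genes of serine, asparagine, proline and one-carbon synthesis, 12 were higher and 9 lower on the positive side (median 0.41). Shmt1 and Shmt2 encode the serine hydroxymethyltransferases. Shmt1 had 959, 1002 and 1152 normalised reads against 666, 658 and 725, so its sides did not overlap. Shmt2 had 490, 566 and 608 against 153, 473 and 285. By limma, 5 of 20 were higher and 1 lower at an unadjusted p under 0.05 with all libraries, and 8 and 3 without negative-side library 2. Over all genes the shares were 3.53% higher and 3.49% lower with all libraries, and 8.32% and 6.64% without that library. Aminoacyl-tRNA synthetases had a median of 0.20 over 23 tested genes, 15 higher and 8 lower, but −0.02 over the 13 with recovered reads, a set that leaves out members with a mean of 1000 and over. Nars, the asparaginyl-tRNA synthetase gene, had a log2 fold change of 0.97 (SE 0.36), and Lars, the leucyl-tRNA synthetase gene, had 941, 1574 and 1364 normalised reads against 481, 1215 and 325.

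**Figure D3:**
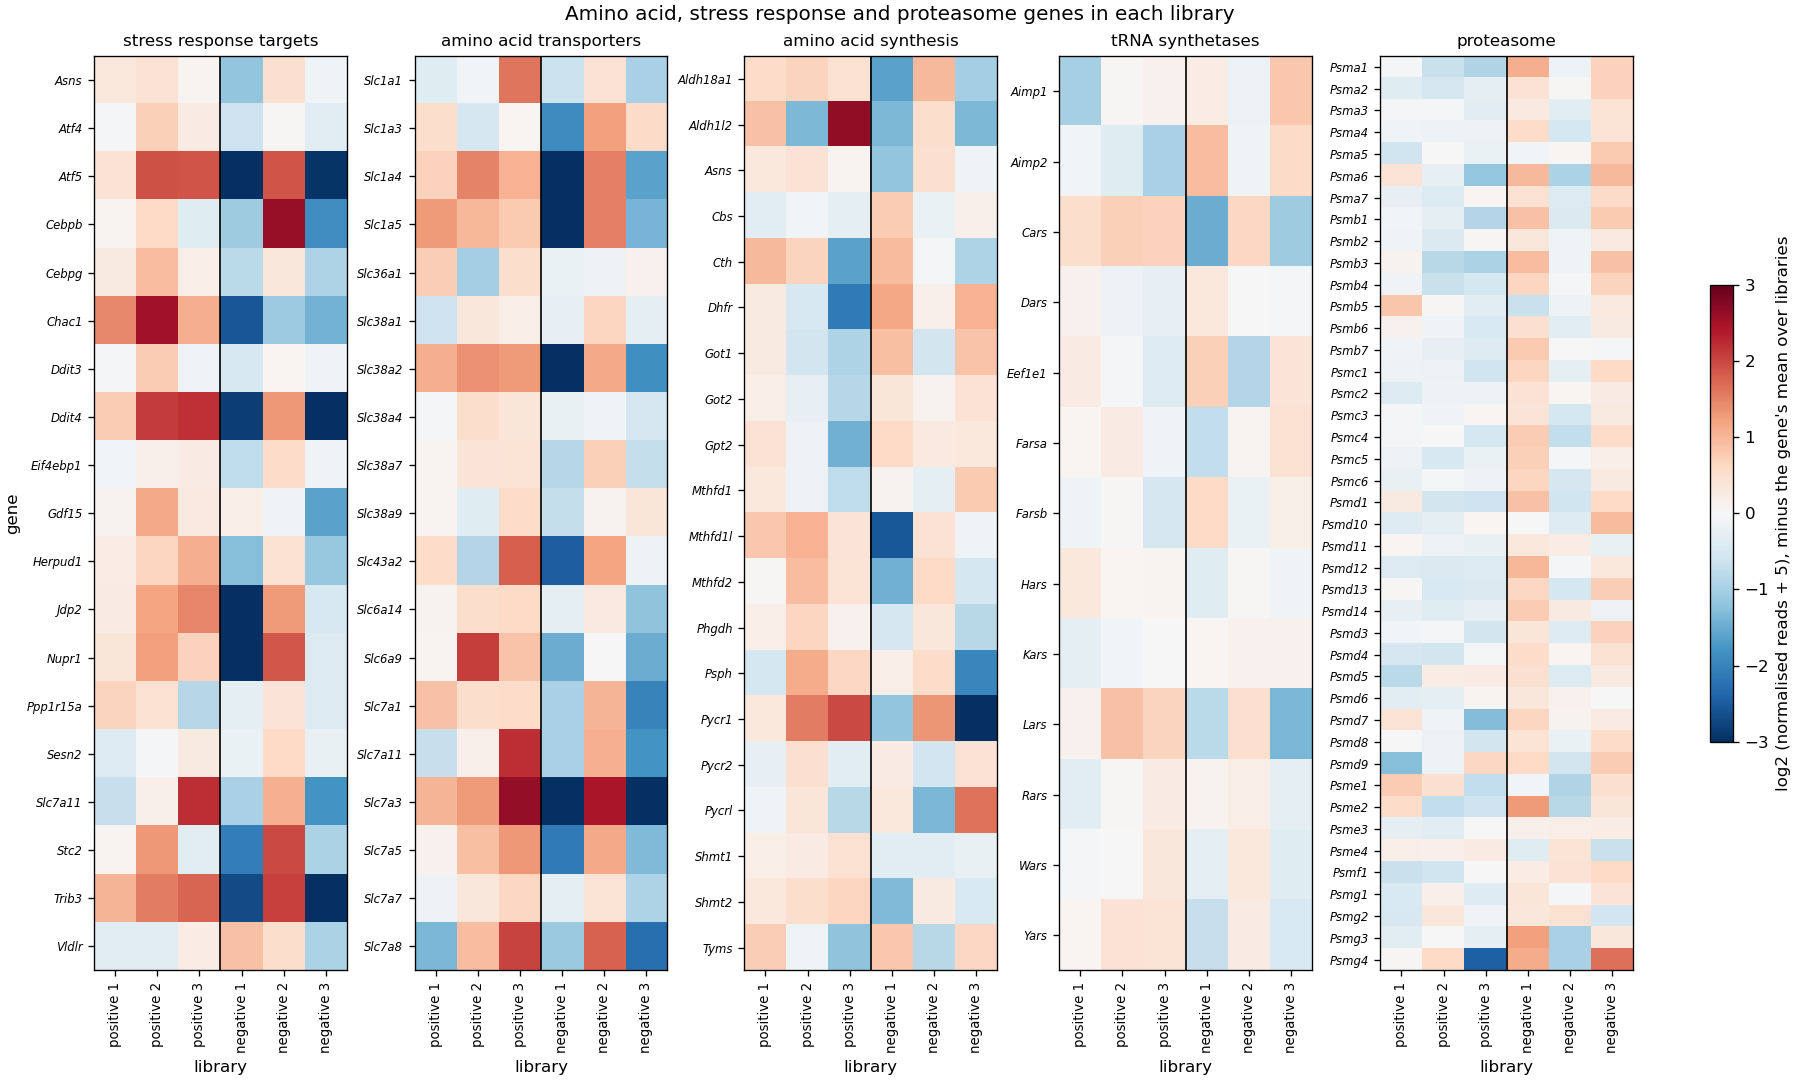
Each row is a list member that had reads and reached a mean of 10, each column a library (positive side left of the black line, negative side right), and the colour is log2 of normalised reads plus 5 minus the mean of that gene over the 6 libraries. In the stress response and transporter panels negative-side libraries 1 and 3 are blue and negative-side library 2 is red like the positive side, and the proteasome panel shows the opposite colours.

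ATF4 and its partners of the C/EBP family bind a composite element, searched here as TGATGNAAN on both strands. It was found in the RefSeq promoter windows (GRCm38.p6, 250 bases before to 50 after the start) of 10 of 20 stress response genes with a window, which is 50% of them. The share was 4.5% of 27025 genes with a window and 2.65% of 9742 tested genes with one. The list was made up of ATF4 targets, so its high share follows from its make-up and is no result of these embryos. Among aminoacyl-tRNA synthetases 5 of 15 genes held it, among amino acid transporters 3 of 20, and among the genes with an adjusted p under 0.05 it was found in 1 of 14, Chac1. The stretch before the start of Chac1 is shown because this gene alone of the list passed the adjusted test. The shorter stretches of Jdp2, Nupr1, Slc7a11, Asns and Vldlr, all list members, show the same element at other distances. The other list members that hold it are Atf3, Fgf21, Herpud1 and Trib3. Capitals mark the element, and a match of letters is not evidence of binding.
Chac1, chr2:119350992-119351241, plus strand: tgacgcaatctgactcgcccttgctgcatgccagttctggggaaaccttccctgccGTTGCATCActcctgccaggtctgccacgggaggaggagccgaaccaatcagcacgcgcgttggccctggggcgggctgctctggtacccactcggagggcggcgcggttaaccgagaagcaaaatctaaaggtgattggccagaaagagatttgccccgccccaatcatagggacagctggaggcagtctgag
Jdp2, chr12:85599357-85599415, plus strand: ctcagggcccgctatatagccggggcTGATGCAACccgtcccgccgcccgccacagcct
Nupr1, chr7:126625547-126625607, minus strand: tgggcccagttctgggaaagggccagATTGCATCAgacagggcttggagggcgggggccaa
Slc7a11, chr3:50443645-50443705, minus strand: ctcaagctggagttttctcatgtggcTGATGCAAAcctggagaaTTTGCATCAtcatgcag
Vldlr, chr19:27216793-27216853, plus strand: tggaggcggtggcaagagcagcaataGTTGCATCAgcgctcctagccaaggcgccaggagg
Asns, chr6:7693210-7693258, minus strand: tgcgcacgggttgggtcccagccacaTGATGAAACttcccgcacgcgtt

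The element of Chac1 begins 194 bases before the start, that of Nupr1 111 bases, that of Jdp2 33 bases and that of Asns 23 bases before it, while Slc7a11 holds a pair at 66 and 48 bases. That of Vldlr begins 201 bases before it. These genes were chosen for their element, and their values were known. Jdp2, a transcription repressor gene, had 113, 221 and 270 against 2.47, 234 and 66.2. Nupr1, a stress-induced nuclear protein gene, had 81.4, 154 and 105 against 0, 243 and 46.0. The asparagine synthetase gene Asns had 1022, 1112 and 873 against 361, 1159 and 752. In each of the 3, negative-side libraries 1 and 3 were below the positive side and library 2 was not. Slc7a11, the cystine transporter gene, had 5.71, 14.2 and 75.4 against 3.71, 31.2 and 0. Vldlr, a lipoprotein receptor gene, had 24.3, 24.4 and 38.9 against 63.1, 49.1 and 14.4, with a log2 fold change of −0.54 (SE 0.92), so that the element was also found in a gene with the opposite sign.

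Leaving out negative-side library 2 gave other counts of called genes and directions. The limma test with the remaining 5 libraries called 38 of 10546 genes (0.36%), of which 32 were higher and 6 lower on the positive side. Leaving out any other single library gave 0 calls. Of the 32 genes, 12 belonged to the 4 stress and amino acid lists and none of the 6 did. Those 12 included the transporters Slc38a2 (log2 difference 3.74, adjusted p = 0.00476, limma) and Slc7a5 (2.52, adjusted p = 0.0203), the synthetase genes Cars (1.94) and Lars (1.67), and Aldh18a1 (1.87) of proline synthesis. In 25 of the 32, the library left out lay within or above the range of the positive side. The 6 lower genes were Gja1, Isyna1, Tes, Gstp2, Inpp5d and Tubb4b, and 4 of them were among the authors' 15. These 38 genes were singled out after their values were seen, and library 2 stood out by its correlations in the same data. The counts and adjusted p-values of the fit without it are therefore descriptive only.

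Other genes among the 32 belong to several processes. Vegfa, the vascular growth factor gene, had 238, 298 and 295 normalised reads against 2.47, 214 and 11.5. Hspg2, which encodes the basement membrane protein perlecan, had 356, 529 and 512 against 39.6, 952 and 46.0. Pfkl, a phosphofructokinase gene of glycolysis, had 868, 1143 and 898 against 291, 963 and 233. Sox7, a transcription factor gene of the primitive endoderm, had 198, 108 and 171 against 0, 46.8 and 2.88, so that its sides did not overlap even with library 2 included. Pip5k1b, a lipid kinase gene, had 577, 913 and 996 against 152, 571 and 158.

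With all 6 libraries, the same limma test placed 6 of 19 stress response genes and 7 of 19 transporters at an unadjusted p under 0.05, all higher on the positive side, against 3.53% of all genes in that direction and 3.49% in the other. Without negative-side library 2 these counts were 10 of 18 and 13 of 19, all higher on the positive side, against 8.32% of all genes in that direction and 6.64% in the other. Without a filter on low means the test called 5 of 16947 genes (0.0295%). The median difference of log2 normalised reads plus 1 was 1.35 with and 2.09 without that library for the stress response, and 1.11 and 2.17 for transporters. These lists were chosen with earlier results of these data known.

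Genes of protein breakdown and of mitochondrial translation were mostly lower on the positive side. The proteasome degrades tagged proteins, and 41 of its 45 tested genes were lower and 4 higher on the positive side, with a median log2 fold change of −0.52. By the authors' deposited p-values, 7 of them had an unadjusted p under 0.05, all lower, against 3.53% of all tested genes in that direction, and none passed the adjusted test. Psma1, a core subunit, had 303, 193 and 162 normalised reads against 669, 274 and 506. Psmb3, another core subunit, had 364, 189 and 174 against 656, 312 and 627. Negative-side libraries 1 and 3 were above every positive-side library in 31 of 42 proteasome genes, which is 73.8%, against 17.3% of all genes. Library 2 joined them in 10 of the 31, and over all genes in 690 of 1820. By limma, 6 of 42 were lower at an unadjusted p under 0.05 with all libraries, against 3.49% of all genes. Without negative-side library 2, 17 were lower and 1 higher, against 6.64% of all genes lower.

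Mitochondrial ribosomal proteins were lower on the positive side in 70 of 75 tested genes and higher in 5, with a median of −0.63. Of these, 5 had an unadjusted p under 0.05, which is 6.67% of the list and near the 6.21% of all genes. Mrps24 had 57.1, 67.0 and 84.6 normalised reads against 181, 187 and 253, with a log2 fold change of −1.57 (SE 0.49). Mrps11 had 9.99, 10.2 and 34.3 against 106, 64.7 and 109. Neither pair of sides overlapped, and in 18 of 75 genes every negative-side library was above every positive-side library, against 6.54% of all genes with a mean of at least 10. By limma, 7 of 75 were lower at an unadjusted p under 0.05 with all libraries, against 3.49% of all genes. Without negative-side library 2, 14 were lower and 1 higher, against 6.64% of all genes lower and 8.32% higher. Cytosolic ribosomal proteins had a median of −0.13 over 85 genes, 65 of them lower. Ribosome biogenesis genes had a median of −0.22 over 41, and nuclear respiratory chain genes −0.19 over 78.

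Transcript length moved with these lists. Over protein-coding tested genes with a mean of at least 10, those with the shortest transcripts (204 to 2027 bases, longest transcript per gene in GENCODE M21) had log2 fold changes with a median of −0.27, and 66.3% were negative. Those with the longest transcripts (5347 bases and over) had a median of 0.19 and 37.2% negative. Beside the positive-side levels of −0.10 to −0.06, the short genes had levels of 0.22, −0.03 and 0.33 in negative-side libraries 1, 2 and 3, on the scale of the plot of list levels. The median length was 1884 bases for mitochondrial ribosomal proteins, 1919 for the proteasome, 1049 for cytosolic ribosomal proteins, 2016 for the stress response and 3926 for amino acid transporters. The part of length in these results was not tested.

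**Figure D4:**
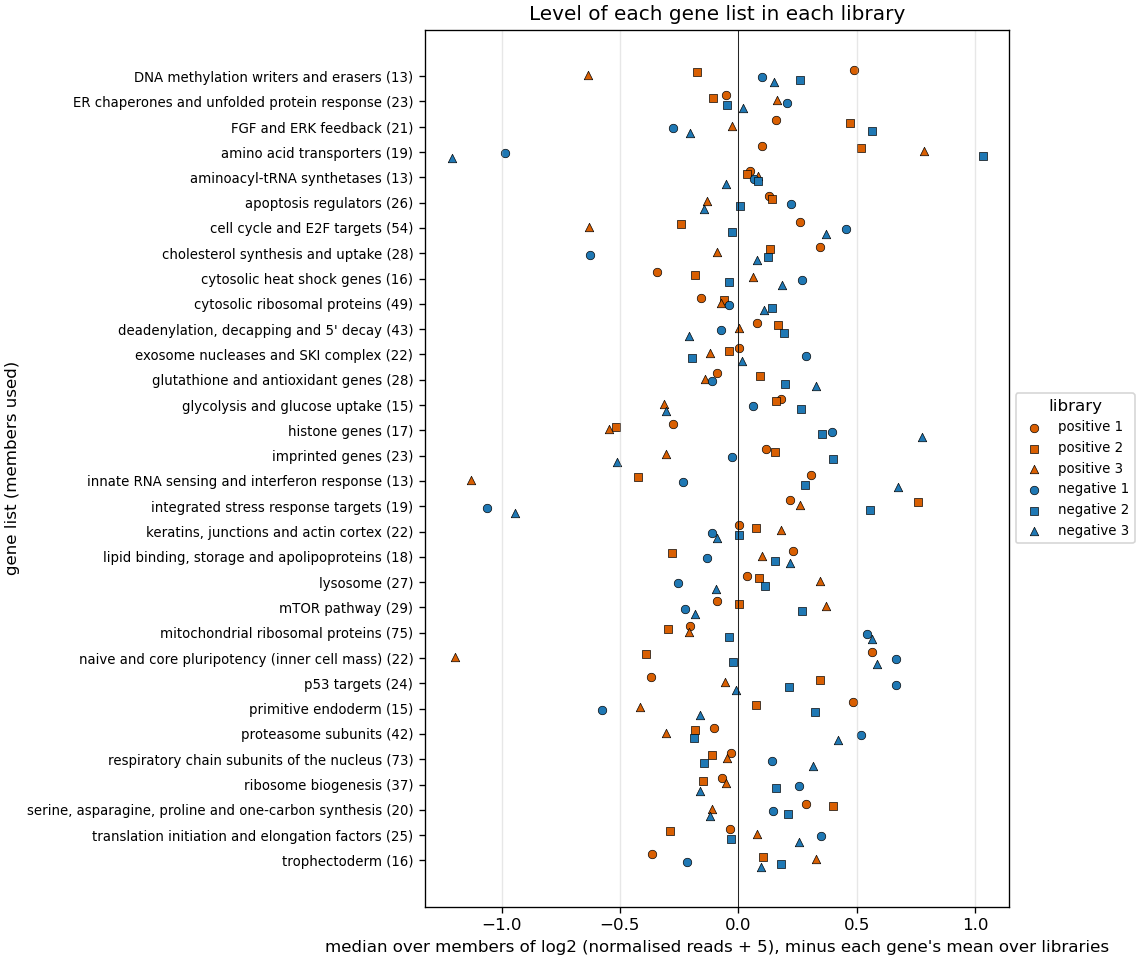
Level of each gene list with at least 10 usable members (y axis, number of members in brackets) in each library, as the median over members of log2 of normalised reads plus 5 minus each gene's mean (x axis). Orange points are positive-side and blue points negative-side libraries. Amino acid transporters span from −1.21 in negative-side library 3 to 1.03 in negative-side library 2.

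The level of the inner cell mass list in the libraries was 0.56, −0.39 and −1.20 in the positive-side libraries and 0.66, −0.02 and 0.58 in the negative-side libraries, so the sides overlapped. Of 30 tested markers 21 were lower and 9 higher on the positive side, with a median log2 fold change of −0.29. By the authors' deposited p-values, 5 were lower and 1 higher at an unadjusted p under 0.05, against 6.21% of all tested genes in both directions and 3.53% lower. Tdgf1, the Nodal co-receptor, had 180, 146 and 61.7 normalised reads against 455, 241 and 610, without overlap. Nanog, a core pluripotency factor, had 197, 65.0 and 9.14 against 518, 185 and 331. Dppa3, which protects maternal methylation, had 260, 10.2 and 0 against 954, 33.5 and 1142. Other markers, chosen after their values were seen, did not fall. Positive-side and negative-side means were 50.6 and 10.6 for Lefty2, and 83.3 and 82.2 for Sox2. From recovered reads of 24 markers the median was −0.47 with all libraries and −0.05 without positive-side library 3. In whole embryos, fewer cells of a type and less RNA per cell cannot be told apart.

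Over 35 trophectoderm markers the log2 fold changes had a median of 0.17, with 21 higher and 14 lower on the positive side. From recovered reads the median was −0.24 without positive-side library 3. Ly6a had the smallest unadjusted p-value, with 156, 112 and 88.0 normalised reads against 289, 250 and 516. The keratin genes Krt8 and Krt18, which build the filaments of this epithelium, had log2 fold changes of −0.87 (SE 0.36) and −0.63 (SE 0.29). Krt7, a keratin gene chosen after its values were seen, went the other way, with means of 561 ± 385 and 224 ± 173 (SD). By the authors' deposited p-values, 2 markers were higher and 3 lower at an unadjusted p under 0.05. The shares of all tested genes were 2.68% higher and 3.53% lower. Primitive endoderm markers had a median of −0.05 over 27 genes. Their level was 0.48, 0.07 and −0.41 in the positive-side libraries and −0.57, 0.32 and −0.16 in the negative-side libraries, again with overlap. By limma, 1 of 15 was higher and 1 lower at an unadjusted p under 0.05 with all libraries, and 5 and 2 without negative-side library 2. The shares of all genes were 3.53% higher and 3.49% lower, and 8.32% and 6.64% without that library. Hnf4a, a regulator of visceral endoderm, had 4.28, 2.03 and 0 normalised reads against 27.2, 6.69 and 37.4, whereas Sox7 pointed the other way.

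Cell cycle genes were mostly lower on the positive side, 42 of 56 tested, with a median of −0.43. Of these, 13 had an unadjusted p under 0.05, 12 lower and 1 higher, against 6.21% of all tested genes, and E2f2 passed the adjusted test. Cdk1, the mitotic kinase, had 198, 116 and 128 normalised reads against 440, 167 and 665. Birc5, which encodes the mitotic and anti-apoptotic protein survivin and stands in the apoptosis list, had 113, 81.2 and 139 against 262, 239 and 492, without overlap, and its log2 fold change was −1.57 (SE 0.47). By limma, 10 of 54 cell cycle genes were lower and 1 higher at an unadjusted p under 0.05 with all libraries, and 16 and 2 without negative-side library 2. Of all genes, 3.49% were lower and 3.53% higher, and 6.64% and 8.32% without that library. The level of the cell cycle list was 0.26, −0.24 and −0.63 in the positive-side libraries and 0.45, −0.03 and 0.37 in the negative-side libraries. Histone genes had a median of −1.06 over 46 genes, 32 lower and 14 higher, at a median mean of 6.30 normalised reads. H2afx, the histone variant marked at DNA breaks, had 277, 220 and 194 against 823, 344 and 644.

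Targets of p53 had a median of −0.54 over 27 genes, 21 lower and 6 higher on the positive side, with 2 at an unadjusted p under 0.05, both lower, against 3.53% of all tested genes in that direction. Ccng1 had 204, 355 and 86.8 normalised reads against 811, 290 and 558, and its sides overlapped. Heat shock genes had a median of −0.16 over 25 genes with 6 at an unadjusted p under 0.05, 5 lower and 1 higher, against 6.21% of all tested genes. That median was −0.40 over members with a mean of at least 10, and from recovered reads it was 0.08 without positive-side library 1 and 0.12 without negative-side library 2. Hspa8, the constitutive cytosolic chaperone, had a log2 fold change of −0.80 (SE 0.27), and Dnaja1, its co-chaperone, had 256, 442 and 368 against 977, 442 and 820. Among genes of the unfolded protein response the median was −0.02 over 29. Hspa5, the chaperone of the endoplasmic reticulum, had a log2 fold change of −0.99 (SE 0.36), and Eif2ak3, the eIF2 kinase PERK, had one of 1.07 (SE 0.45).

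Of 22 tested exosome and SKI genes, 10 were higher and 12 lower on the positive side, with a median of −0.20. One, Exosc3, had an unadjusted p under 0.05, which is 4.55% of the list, against 6.21% of all tested genes. Exosc3, a cap subunit of the exosome ring, had 39.98, 50.8 and 11.4 normalised reads against 104, 75.8 and 150, without overlap. Pelo, which rescues stalled ribosomes, had 114, 77.1 and 93.7 against 226, 64.7 and 265. The 45 genes of deadenylation, decapping and 5′ decay had a median of 0.04, and Btg1, which recruits deadenylases, had the smallest p-value with 210, 221 and 510 against 81.6, 207 and 152. Among 18 tested genes of innate RNA sensing and the interferon response, 3 had an unadjusted p under 0.05, 2 higher and 1 lower. The shares of all tested genes were 2.68% higher and 3.53% lower. The median mean of the list was low, at 28.4 normalised reads. Bst2, the antiviral tetherin gene, had 14.3, 14.2 and 0 against 87.8, 100 and 34.5.

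Cholesterol genes had a median of 0.14 over 27 genes, and Insig1, which holds the sterol sensor in the endoplasmic reticulum, had 138, 276 and 770 normalised reads against 69.3, 196 and 106. Lysosomal genes had a median of 0.14 over 35, with 5 at an unadjusted p under 0.05, 4 higher and 1 lower, against 6.21% of all tested genes. Ctsc, a lysosomal protease gene, had 450, 867 and 1442 against 442, 453 and 437, a spread on the positive side and nearly equal values on the negative side. Glycolysis genes had a median of −0.01 over 22. Hk1, a hexokinase gene, had 0, 10.2 and 11.4 against 24.7, 93.7 and 89.2. Glutathione and antioxidant genes had a median of −0.41 over 30, 5 of them at an unadjusted p under 0.05, 1 higher and 4 lower, against 6.21% of all tested genes.

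Genes of the mitochondrial genome were higher on the positive side in 12 of 16 tested genes, with a median of 0.40. Of these, 4 had an unadjusted p under 0.05, all higher, which is 25% against 6.21% of all tested genes. They were mt-Rnr2 (log2 fold change 0.56, SE 0.20), mt-Nd6 (0.62, SE 0.26), mt-Cytb (0.48, SE 0.23) and mt-Co2 (0.64, SE 0.31). Normalised reads of mt-Co2 were 595, 589 and 832 against 400, 424 and 475, without overlap. The last 2 were chosen after their values were seen. The median mean of the list was 2580. Of all tested genes with a mean of 1000 and over, 12.8% had an unadjusted p under 0.05. By limma, 2 of 6 were higher at an unadjusted p under 0.05 with all libraries, and 0 of 6 without negative-side library 2. Of all genes, 3.53% were higher with all libraries and 8.32% without that library.

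Imprinted genes had a median of −0.07 over 31 tested genes, and 5 had an unadjusted p under 0.05, 3 higher and 2 lower, against 6.21% of all tested genes. By limma, 3 of 23 were higher at an unadjusted p under 0.05 with all libraries, against 3.53% of all genes. Without negative-side library 2, 9 of 22 were higher and 1 lower, against 8.32% of all genes higher and 6.64% lower. Cdkn1c, a cell cycle inhibitor gene expressed from the maternal copy, had no positive-side reads and 0, 35.7 and 31.6 in the negative-side libraries. Sfmbt2, a paternally expressed gene of the placenta, had 217, 308 and 480 against 203, 132 and 80.6. Oocyte-supplied genes had a median of −1.56 over 14 and none at an unadjusted p under 0.05. DNA methylation writers and erasers had a median of −0.15 over 15, also with none. Embryo sex differed within the sides. The Y-linked gene Uty, chosen after its values were seen, had 0, 75.1 and 89.1 normalised reads against 0, 0 and 31.7.

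By gene type, protein-coding genes made up 12392 of the tested genes and held all 15 calls. At an unadjusted p under 0.05 they reached 6.78%. Processed pseudogenes, which are copies of messenger RNA in the genome, had 1506 tested genes with 2.39%. Long intergenic noncoding RNAs had 300 with 6%, and antisense genes 205 with 5.37%. Transcripts awaiting experimental evidence (type TEC) had 261 with 5.75%, 13 of 15 being higher on the positive side. The median standard error was 0.74 for protein-coding genes and 3.30 for long intergenic RNAs, so that a log2 change of 3.00 and of 13.4 would have been needed for a call at the median error. Tunar, a long noncoding RNA gene of pluripotent cells, had the smallest p-value of its type, with no positive-side reads and 71.7, 4.46 and 14.4 in the negative-side libraries. Since these libraries do not mark strand, reads of antisense genes and of the genes they overlap cannot be told apart.

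The highest mean belonged to Lars2, the mitochondrial leucyl-tRNA synthetase gene, with 964623 normalised reads and a log2 fold change of 0.36 (SE 0.29). It was followed by Gm23935 (415203), mt-Rnr2 (157726), Gm15564 (145930), Gm24245 (93420) and the ribosomal RNA gene Rn18s-rs5 (55522, log2 fold change −0.49, SE 0.24). The remaining 4 of the top 10 were Gm24270, Gm26917, Psap and Gm25911. Genes of the type miRNA held 12.9% of the summed means. These are means of reads assigned to annotated genes. Whether reads assigned to Lars2 or to genes of the type miRNA came from transcripts of those genes was not tested. Gm23935 (chromosome 16, 11144125 to 11144181), Gm24245 (chromosome 4, 139338304 to 139338360) and Gm24270 (chromosome 9, 56223715 to 56223771) are annotated with 1 identical sequence of 57 bases in GENCODE M21, so their reads cannot be assigned to a copy. The sequence is shown because these 3 entries lead their type.
Gm23935, Gm24245 and Gm24270: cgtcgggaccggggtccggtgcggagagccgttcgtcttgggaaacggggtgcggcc

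No gene was called among the 592 tested genes with a mean under 2 or the 3686 with a mean from 2 to under 10. From 10 to 50 normalised reads 7 of 3526 were called, with a smallest absolute log2 fold change of 6.51. From 50 to 200 there were 4 of 4143, with 3.59 as the smallest change, and from 200 to 1000 there were 4 of 2848, with 1.46. Among 414 tested genes with a mean of 1000 and over none was called, although 53 (12.8%) had an unadjusted p under 0.05 and the median standard error was 0.28. In that class, BC051665 had the smallest unadjusted p-value, 0.000586 in the authors' deposited table, with a log2 fold change of 1.62 (SE 0.47).

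**Figure D5:**
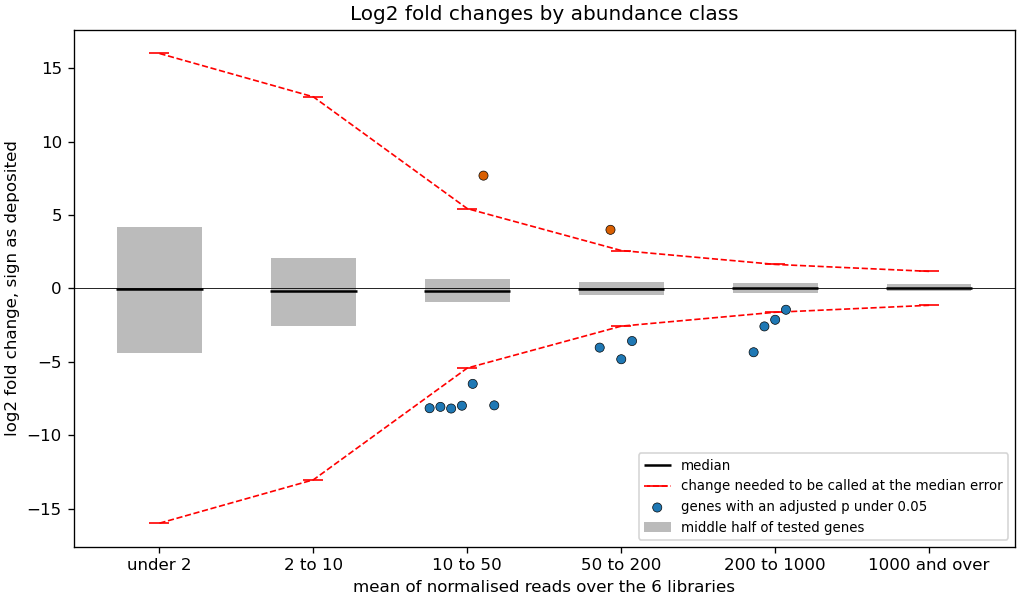
Log2 fold changes as deposited (y axis) by class of mean normalised reads (x axis). Grey bars run from the lower to the upper quartile of tested genes, black lines are medians, dashed red lines the change needed for a call at the median standard error of the class, and points the 15 called genes (orange higher, blue lower on the positive side).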

How the data were processed

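Single-embryo RNA-seq was available as a table of the authors' own comparison of 3 knockout with 3 wild-type blastocysts. Per the submitters' processing notes, which give no order or role, STAR 2.4.0b, SAMtools, bedtools, featureCounts of Subread 2.0.1, DESeq2 1.34.0 and the build GRCm38 were used. The authors deposited a mean normalised signal per gene (read counts divided by size factors), a log2 fold change and its log2 standard error, a test score (the Wald statistic), and a p-value with its adjusted p-value. The deposited values are not per sample. The authors' adjusted p-value was the main test.

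Whole reads per library were recovered by finding the reads whose normalised mean equals the deposited mean. In 12860 genes the recomputed fold change also equalled the deposited one, within 1e-09, and 4087 genes were solved from the mean alone. In simulated data 300 of 300 genes were solved correctly. The simulation left out the higher means that were solved, and its fold changes came from the same fitting routine as the solver. Of counts above 0 in recovered genes, 95.6% were even. The planned edgeR test was not run because the deposited table holds no counts. Instead, limma 3.58.1 (R 4.3.3) was fitted on log2 of normalised reads plus 1 for genes with a mean of at least 10, with Benjamini-Hochberg adjustment, a choice made after seeing the data. On data simulated for this comparison over 10551 genes, it called 28% of genes changed by 2 and 72% of genes changed by 4 on the log2 scale, and 4 of 10351 unchanged genes. Fits without 1 library assume that the libraries left vary alike. Scripts ran in Python 3.11.15.

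The 38 gene lists were chosen with earlier results of these data known. Named genes are those with an adjusted p under 0.10, Dis3l, per list the pair with the smallest p and the highest mean, per gene type the pair with the smallest p, per abundance class the smallest p, the 10 highest means and the 5 highest means without a p. Any other gene is marked in the text as picked once its values were known. The labels do not say whether embryos shared a litter, so p-values measure the spread between these embryos. Bounds from a floor of 3 reads cover at most the counting error of independent reads, since no molecular identifiers were used. With 95.6% of counts even, these bounds may be too high.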

Additional observations from a re-analysis of the deposited data

How the results depend on the processing

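The count of 15 called genes was 9 at an adjusted p under 0.01 and 8 with the adjustment over genes with a mean of at least 50. It was 4 over genes with a mean of at least 200, an alternative chosen after seeing the data. Under the other planned thresholds and gene sets it lay within 1.5 times of 15. The planned edgeR alternatives were not run. The limma fits that replaced them, also chosen after seeing the data, called 0 genes, 0 with a pseudocount of 5 and 5 without a filter on low means (4 higher, 1 lower on the positive side). Leaving out 1 library in turn gave 0 to 38 calls, with 38 only without negative-side library 2, and 4 of these were among the 15. The cause was not tested. The balance of directions changed with the fit, from 2 higher and 13 lower as deposited to 32 higher and 6 lower in limma without negative-side library 2. No log2 ratio of a called gene changed sign without 1 library. The sides do not overlap in any of the 15, so that outcome was set in advance for genes with reads on both sides. Among list medians, 39 of 304 under an alternative had the opposite sign to the main median, in 18 lists. They include aminoacyl-tRNA synthetases (0.20, but −0.02 from recovered reads and −0.14 without negative-side library 3), trophectoderm (0.17, but −0.24 without positive-side library 3), lysosome (0.14, but −0.11 without positive-side library 3) and the interferon response (−0.47, but 0.14 without negative-side library 3). Of 90 log2 ratios of called genes without 1 library, 85 moved by less than the spread, and 5 moved more. These were E2f2 (−6.75, but −3.99 without positive-side library 1 and −6.17 without positive-side library 2 or 3), Wdr35 (−3.91, but −1.04 without negative-side library 1) and Zcchc24 (−4.01, but −3.58 without negative-side library 1). List medians moved by less than the spread in 256 cases and by more in 48. Among genes with a mean of at least 10, the share at an unadjusted p under 0.05 was 9.86% for long intergenic RNAs, 10.5% for TEC and 13.8% for antisense genes. No paired analysis was possible because the count columns carry no replicate numbers. The median standard error was largest at low means, where a call needs a larger change; depth was not tested apart from the spread between embryos.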

Other observations

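A further 47 genes had a mean above 0 but no p-value in the authors' deposited table. Of the 42 with recovered reads, 14 were highest in negative-side library 2, 13 in negative-side library 1, 9 in positive-side library 1, 5 in positive-side library 3, 1 in positive-side library 2 and 0 in negative-side library 3.
Among them, Hspg2 had 356, 529 and 512 normalised reads against 39.6, 952 and 46.0. Klhl22, an adaptor of a ubiquitin ligase, had 391, 548 and 411 against 63.1, 912 and 46.0. Bhlhe40, a transcriptional repressor gene, had 306, 270.0 and 962 against 0, 720.2 and 48.9. In all 3 genes negative-side libraries 1 and 3 were below every positive-side library and library 2 was not.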
